A study of Homo sapiens with 8 samples.

Results

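The genes described here are 10 that mark or drive the contractile program of smooth muscle: the smooth muscle actins ACTA2 and ACTG2, the actin-binding proteins TAGLN, CNN1, LMOD1, SYNPO2 and SMTN, the smooth muscle myosin heavy chain MYH11, and the transcriptional regulators MYOCD and SRF. They were taken by symbol from a list that was drawn up with earlier results of these data known, and all 10 were found among the 27696 genes of the count table. The cells were IMR90, a line of primary human fibroblasts from embryonic lung. For 3 days they received conditioned medium, and its donors were IMR90-ER:RAS fibroblasts, a derivative in which 4-hydroxytamoxifen (4-OHT) switches on an oncogenic RAS fused to the oestrogen receptor and so starts senescence. Medium was taken from the donor culture at day 0, 4, 7 or 10 of 4-OHT, and the recipients of each medium are called D0, D4, D7 and D10. Every group was sequenced in 2 independent experiments, one library each, which gave 8 libraries of polyadenylated RNA. The recipients carried no ER:RAS construct of their own, and D0 was the control, so all groups had received medium from the same engineered donor line. No group received medium that had not been conditioned, and a single recipient line was used, so that the values describe 1 cell line.

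Fibroblasts that acquire contractile genes are called myofibroblasts. In smooth muscle and in myofibroblasts, actin filaments built from ACTA2 and ACTG2 slide against myosin, while calponin (CNN1), transgelin (TAGLN), leiomodin (LMOD1), synaptopodin-2 (SYNPO2) and smoothelin (SMTN) bind, nucleate or bundle those filaments. Many of these genes are driven by SRF, which binds a short DNA element called the CArG box, a run of A or T between CC and GG. SRF is present in most cells and depends on partners for its choice of targets. Myocardin (MYOCD) and its relatives MRTFA and MRTFB direct it to contractile genes, whereas ternary complex factors such as ELK1 direct it to growth genes.

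The start-site sequences show where this element lies near annotated starts of the genes whose levels are compared. RefSeq promoter windows (GRCh38.p14, 250 bases before to 50 after a start) were held for 7 of the 10 genes, in 14 windows. TAGLN, MYH11 and MYOCD had no entry. The exact box lay in 3 of the 14 windows, 1 each of ACTG2, SMTN and SRF, and in 1.29% of all 35116 windows. A looser box, with 1 G or C allowed in its centre, added 1 window each of ACTA2 and SYNPO2, so that either form lay in 5 of the 14 windows and in 8.13% of all windows. The box is its own reverse complement in form, so one search covers both strands, and a match is a description of the letters and not of binding. Boxes are in capitals in the stretches below, which read 5′ to 3′ along the gene. Where a stretch overlaps an annotated exon only 30 bases around the box are given. All 30 bases of the SYNPO2 stretch, its box included, and 11 bases of the nearer ACTG2 stretch lie in annotated exons.
ACTA2, downstream one of 2 windows, chr10:88952810-88952919, minus strand: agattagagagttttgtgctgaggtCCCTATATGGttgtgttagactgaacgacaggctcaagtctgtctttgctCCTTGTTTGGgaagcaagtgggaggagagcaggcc
ACTG2, farther box, chr2:73892888-73892917, plus strand: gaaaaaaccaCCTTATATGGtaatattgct
ACTG2, nearer box, chr2:73892925-73892954, plus strand: cgtcagctggCCTTTTTAGGgactttgttt
SMTN, most downstream of 4 windows, chr22:31084927-31084986, plus strand: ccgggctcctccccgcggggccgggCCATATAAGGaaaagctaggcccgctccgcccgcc
SRF, chr6:43171214-43171268, plus strand: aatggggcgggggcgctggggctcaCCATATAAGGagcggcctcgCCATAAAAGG
SYNPO2, most downstream of 3 windows, chr4:119026999-119027028, plus strand: cgctagtggcCCTTTAGTGGctctcccggg

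The pair of ACTA2 boxes begins 121 and 71 bases before its start, and each is of the looser form. The ACTG2 pair begins 110 and 73 bases before its start, and the SRF pair 30 and 10 bases before. The same 10 letters, CCATATAAGG, occur in the SMTN and SRF windows. CNN1 and LMOD1 held neither form in the window searched.

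Libraries held between 11708193 and 13395912 counts (median 13215100), and levels are given as CPM (counts scaled to a common library size, with TMM factors). Of the genes in the table, 13798 passed the filter on low counts. They entered 1 quasi-likelihood fit of all 8 libraries in edgeR, with Benjamini-Hochberg adjustment over all of them and a call at an adjusted p under 0.05. All 10 members passed. MYH11 passed only through the D0 libraries, where it was high, so that its presence in the test depended on the difference tested. It is left out of the counts of called members and gets no test or interval of its own. Counts that include it say so. The experiment numbers pair the libraries, and a second edgeR fit holds the experiment as a block. Its values are given wherever they change a call. D4, D7 and D10 were each set against the same D0 libraries, so the 3 comparisons are not independent. All 8 fibroblast markers checked were detected, led by COL1A2. The summed fibroblast level ran from 30472 to 43246 CPM in D0 and from 9406 to 32126 CPM in D10. With the block, 2 of the 8 were called lower in D10, against 2.45% of all genes. These were PDGFRB, at -1.40, and DCN, at -1.75 on the log2 scale in that fit. Without the block, 7 of the 8 had a negative change (median -0.61), as had 49.6% of all tested genes. The part of this in the results below was not tested. Among muscle markers outside the members, 3 of the 5 late smooth muscle genes had a row in the count table. These summed to between 4.28 and 11.04 CPM over all libraries, led by RBPMS2, and DES averaged 0.036 CPM in D0. KCNMB1, CASQ2, MYOD1, MYOG, MYH6 and MYH7 had no row there, so their counts are not known. Of 5 epithelial markers the 4 with a row summed to between 0.473 and 2.53 CPM. Of 5 leukocyte markers the 4 with a row summed to between 1.53 and 3.77 CPM. Of 6 pericyte markers the 5 with a row summed to between 318 and 578 CPM. The 5 endothelial ones, mostly TEK, summed to between 42.5 and 122 CPM.

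In each experiment the contractile markers stood below their D0 level with later media, with SMTN as an exception, while SRF stayed near its D0 level. SYNPO2 was lowest on average at D4 (8.72 CPM, against 9.26 at D7 and 10.4 at D10). At D10 the median change of the 9 genes without MYH11 was -1.46 on the log2 scale, against 0.00 over all tested genes. The edgeR test called 1 of these 9 members lower at D10 (ACTA2), where 0.0942% of all genes were called lower. With the replicate block, 5 were called lower (ACTA2, ACTG2, TAGLN, CNN1 and LMOD1), where 2.45% of all genes were. DESeq2 called the same 5, against 0.949% of all genes. No member was called higher, where edgeR called 0.196%, the block 2.54% and DESeq2 1.22% of all genes higher. As in any bulk sample, fewer cells of a type and less RNA per cell cannot be told apart.

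Earlier media gave smaller changes. At D4 the median of the 9 was -0.38 and edgeR, edgeR with the block and DESeq2 each called 0 members, where the lower calls covered 0%, 0.188% and 0.15% of genes and the higher ones 0%, 0.087% and 0.137%. Without adjustment, 3 members (and 409 genes in all) had p under 0.05 at D4. At D7 the median was -0.78. EdgeR called 0 members lower at D7 against a background of 0%, the block 2 (ACTA2 and ACTG2) against 0.739%, and DESeq2 1 (ACTA2) against 0.406%, and 4 members, MYH11 included, had an unadjusted p under 0.05, among 599 genes. None was called higher at D7, against 0%, 0.507% and 0.378% of genes in the same order. Between D4 and D10 edgeR called 0 members lower (background 0%, 6 members, MYH11 included, and 786 genes at an unadjusted p under 0.05), the block called ACTA2, ACTG2, TAGLN and CNN1 (0.833% of genes) and DESeq2 the same genes without CNN1 (0.201%). None was called higher there, against 0.00725%, 1.72% and 0.737% of genes. A slope fitted over the day of the medium used all 8 libraries. It was called negative by edgeR for ACTA2 and ACTG2, where 0.573% of genes were. The block, where 2.11% of genes were, and DESeq2, where 1.49% were, each called 5 of the 9 negative (ACTA2, ACTG2, TAGLN, CNN1 and LMOD1). No slope of a member was called positive, against 0.609%, 2.19% and 1.49% of genes.

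**Figure D1:**
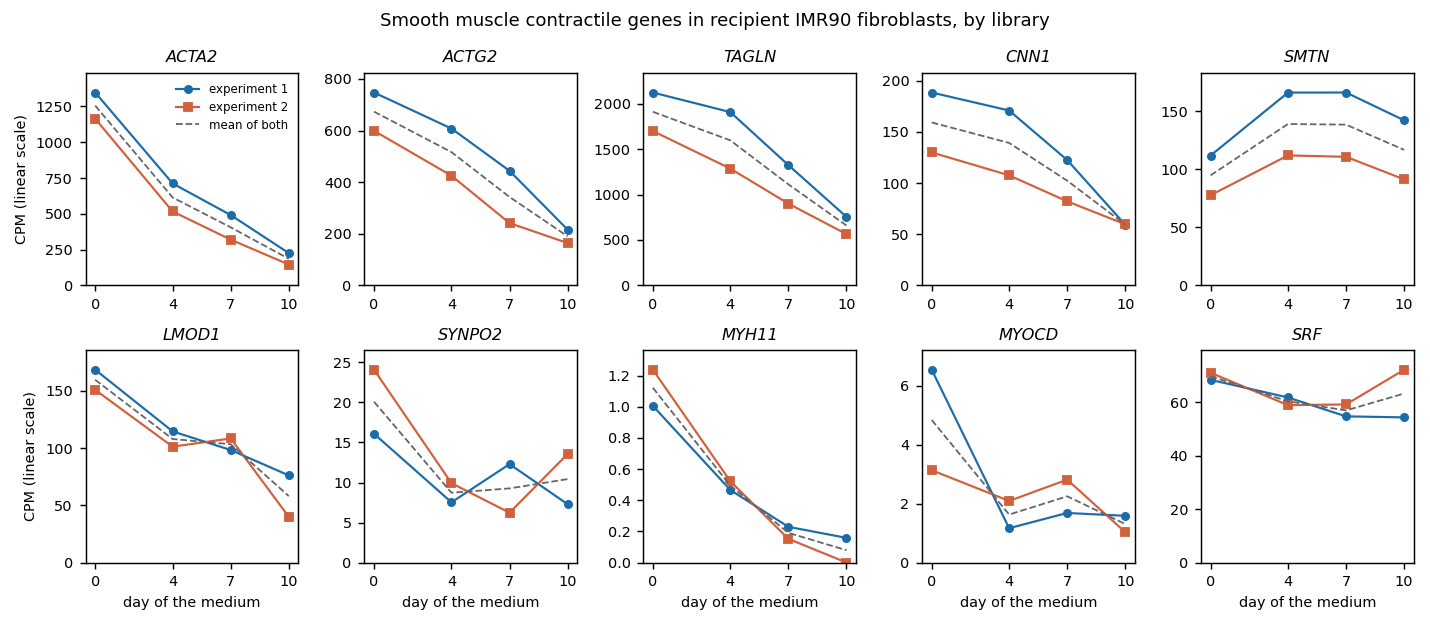
Level of each gene in CPM (linear axis from 0, one scale per panel) against the day of the donor medium, with 1 point per library, a line per experiment and the mean of both dashed. ACTA2, ACTG2, TAGLN and CNN1 descend at every step in both experiments, SMTN lies above its D0 level with every later medium, and SRF stays between 54.4 and 72.3 CPM.

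ACTA2 encodes the smooth muscle alpha-actin by which myofibroblasts are usually recognised (chr10:88935074-88991339, minus strand). In experiment 1 it stood at 1347 CPM in D0, 712 in D4, 491 in D7 and 225 in D10. In experiment 2 the levels were 1164, 516, 319 and 145 CPM. Each later group lay below the earlier one in both experiments, and no 2 of the 4 groups overlapped. The means were 1256 ± 129 CPM in D0 and 185 ± 56.5 CPM in D10 (SD, n = 2). The fitted change at D10 was -2.76 on the log2 scale (SE 0.36, 95% interval -3.59 to -1.93), 6.77-fold lower, with an edgeR adjusted p of 0.0399. The call held without D10 replicate 1 (adjusted p = 0.0287) and was lost without any one of the other 7 libraries (0.054 to 0.215), and the adjusted p was 0.135 when D0 and D10 alone were fitted. The block gave an adjusted p of 3.2e-04 and DESeq2 7.8e-12. The ACTA2 slope, -0.27 per day (SE 0.03, edgeR adjusted p = 0.00505), was called with each library left out in turn, at adjusted p between 0.00682 and 0.0372.

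ACTG2 encodes the gamma-actin of visceral smooth muscle (chr2:73892314-73919865, plus strand). Its levels were 747, 608, 444 and 216 CPM from D0 to D10 in experiment 1 and 599, 425, 241 and 164 CPM in experiment 2. Both D10 libraries were below all others, while D4 of experiment 1 was above D0 of experiment 2. The change at D10 was -1.83 (SE 0.37), 3.55-fold lower, with an edgeR adjusted p of 0.0947, and 0.00172 with the block. Its slope of -0.18 per day (edgeR adjusted p = 0.037) stayed called when D4 replicate 1 or D7 replicate 1 was left out, and missed the threshold without any one of the other 6 libraries (adjusted p up to 0.159). With D7 medium the change was -0.97 (block adjusted p = 0.0415), and without the block it was -1.48 when D7 replicate 1 was left out and -0.60 when D7 replicate 2 was.

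TAGLN encodes transgelin, an actin-crosslinking protein used as an early marker of smooth muscle (chr11:117199321-117204782, plus strand). It stood at 2124, 1908, 1325 and 754 CPM in experiment 1 and at 1699, 1286, 900.1 and 564 CPM in experiment 2. D0 and D4 overlapped across experiments, and both D10 libraries were the lowest. The change at D10 was -1.54 (SE 0.35), 2.90-fold lower, with an edgeR adjusted p of 0.131, and 0.00333 with the block. CNN1, the calponin that binds actin and restrains myosin (chr19:11538717-11550323, plus strand), stood at 188, 171, 122 and 59.1 CPM and at 130, 108, 82.1 and 59.6 CPM. The experiments, apart at D0, met at D10. Its change there was -1.42 (SE 0.33), 2.68-fold lower, with an edgeR adjusted p of 0.134, and 0.00448 with the block.

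LMOD1 encodes leiomodin-1, which nucleates actin filaments in smooth muscle (chr1:201896452-201946588, minus strand). Its levels were 169, 115, 98.3 and 76.2 CPM in experiment 1 and 151, 101, 108 and 39.9 CPM in experiment 2. D4 and D7 overlapped, and D10 of experiment 2 was the lowest library by a wide margin. The change at D10 was -1.46 (SE 0.31), 2.75-fold lower, with an edgeR adjusted p of 0.112, and 0.00867 with the block. Leaving out D10 replicate 1 brought it to -1.98 (edgeR adjusted p = 0.0307), and leaving out D10 replicate 2 to -1.07.

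MYH11, the myosin heavy chain taken as the strictest smooth muscle marker (chr16:15703172-15857033, minus strand), was barely detected. It had 12 and 17 counts in the D0 libraries, 6 and 7 in D4, 3 and 2 in D7, and 2 and 0 in D10. The count of 0 allows a level of up to 0.237 CPM (3 counts) in that library. The groups D0, D4 and D7 did not overlap in counts. Pooled over both libraries, 29 counts in D0 stood against 2 in D10, a level 14.3-fold lower that rests on those few counts. The fitted log2 change at D10 was -3.68, and it moved to -6.87 without D10 replicate 1, which leaves only the library with 0 counts, and to -2.75 without D10 replicate 2. No test is given for MYH11, since the filter admitted it through the D0 libraries.

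SMTN and SYNPO2 did not share this course. SMTN, which encodes the filament-associated smoothelins (chr22:31064105-31104757, plus strand), stood at 112, 166, 166 and 142 CPM in experiment 1 and at 77.7, 112, 111 and 91.3 CPM in experiment 2. In each experiment every later medium gave a level above D0, by 0.55 at D4 and 0.55 at D7 on the fitted log2 scale and by 0.30 at D10 (SE 0.35). None of these passed in edgeR, with the block or in DESeq2: the smallest adjusted p was 0.117, with the block at D7. Without D10 replicate 1 the D10 change was -0.034. SYNPO2, an actin-bundling protein of the Z-disc and dense body (chr4:118850688-119061247, plus strand), stood at 16.1, 7.53, 12.3 and 7.28 CPM and at 24.1, 9.92, 6.23 and 13.6 CPM. Both D0 libraries were above all others, and the later groups overlapped. Its change was -1.20 at D4, -1.12 at D7 and -0.95 at D10 (SE 0.43), with adjusted p of 0.676 at D10 in edgeR and 0.218 with the block. Leaving out replicate 2 of D10 gave -1.46, and leaving out replicate 1 gave -0.55.

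Of the regulators, MYOCD was scarce and lower with later media, and SRF differed little. MYOCD (chr17:12665890-12768949, plus strand) had 78, 15, 22 and 20 counts in experiment 1 and 43, 28, 37 and 13 in experiment 2. Both D0 libraries were above all others, with D7 of experiment 2 close below. Pooled, the level was 2.88-fold lower at D4 (exact Poisson 95% interval 2.02 to 4.18), 2.10-fold lower at D7 (1.52 to 2.91) and 3.61-fold lower at D10 (2.44 to 5.49), intervals that cover counting error only. Across replicates it did not pass: the fitted change at D10 was -1.88 (SE 0.55), with adjusted p of 0.274 in edgeR, 0.0821 with the block and 0.134 in DESeq2. It moved to -1.26 without D0 replicate 1 and to -2.32 without D0 replicate 2. The change at D4, -1.56, was -0.94 without D0 replicate 1 and -2.04 without D4 replicate 2. The change at D7, -1.10, was -0.48 without D0 replicate 1. SRF (chr6:43171299-43181507, plus strand) stood at 68.5, 61.8, 54.8 and 54.4 CPM in experiment 1 and at 71.1, 59.0, 59.2 and 72.3 CPM in experiment 2. The D4 and D7 libraries all lay below both D0 libraries, with fitted SRF changes of -0.21 and -0.29 (SE 0.21 each). Neither passed in edgeR, with the block or in DESeq2. D10 held both the lowest and the highest SRF library. Its change at D10 was -0.14 (SE 0.21), with a 95% interval from -0.62 to 0.34 that leaves out falls of the size fitted for ACTA2, ACTG2 and TAGLN.

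**Figure D2:**
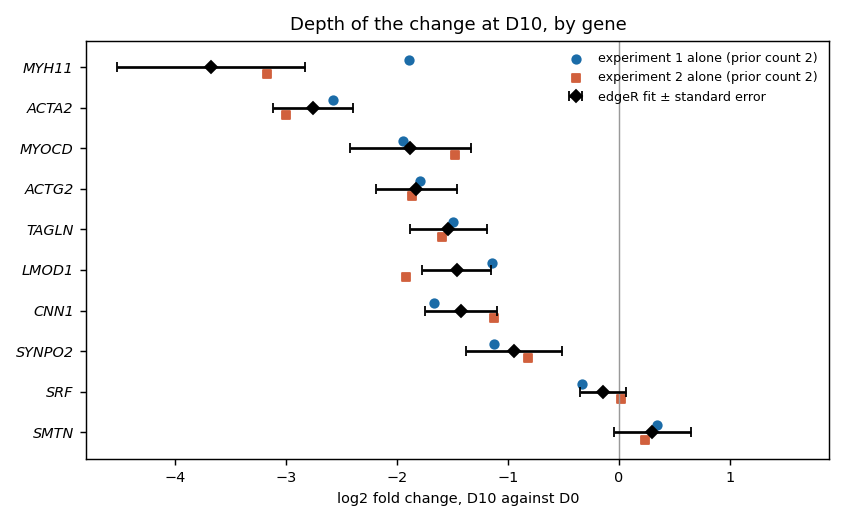
Log2 fold change of D10 against D0 for each gene, ordered by size, as the edgeR fit with its standard error (diamonds, bars) and in each experiment alone from log2 CPM with a prior count of 2. The 7 genes from MYH11 to CNN1 lie at -1.42 or below, SYNPO2 at -0.95, SRF at -0.14 and SMTN at 0.30. The prior count draws the single-experiment points of MYH11 toward 0. The bar of MYH11 is not to be read as a test, since the filter admitted that gene through the D0 libraries.

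The depth of the difference was compared with the regulators in the same library. Relative to SRF (log2 CPM of the gene minus that of SRF, limma), the change at D10 was -2.63 for ACTA2, with adjusted p of 0.052, and 0.0103 with the block. The ratio of ACTA2 to SRF counts, not scaled for length, was 19.7 and 16.4 in the D0 libraries and 4.14 and 2.01 in D10. Relative to SRF, ACTG2 stood at -1.68 (95% interval -2.68 to -0.67), TAGLN at -1.39 (-2.31 to -0.46) and CNN1 at -1.24 (-2.13 to -0.35), and each passed with the block (limma adjusted p from 0.0292 to 0.0367). Thus 0 of the 8 genes compared with SRF, MYH11 set aside, passed without the block (0.0942% of genes lower and 0.391% higher, 7 members, MYH11 included, and 1104 genes at an unadjusted p under 0.05) and 4 with it (0.391% lower and 1.12% higher). The median of the 8 genes without MYH11 was -1.38, against 0.15 over all genes. LMOD1 stood at -1.38 relative to SRF (interval -2.36 to -0.39), MYOCD at -1.56 (-2.74 to -0.38), SYNPO2 at -0.82 (-1.81 to 0.17) and SMTN at 0.44 (-0.59 to 1.48), and these did not pass with or without the block. MYH11, at -2.38, is given as a value only.

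Relative to MYOCD, a comparison added after the data were seen, intervals were wide and were not corrected for the 9 genes compared. At D10 ACTA2 had changed by -1.08 more than MYOCD (95% interval -2.50 to 0.34, limma), and ACTG2, TAGLN, CNN1 and LMOD1 by between -0.12 and 0.32. MYH11, at -0.82, is given as a value only. SYNPO2 stood at 0.74 (-0.68 to 2.15), and this interval and those of ACTA2, ACTG2, TAGLN, CNN1 and LMOD1 held 0. These data therefore do not separate the depth of the marker difference from that of MYOCD. SRF was higher relative to MYOCD by 1.56 (0.14 to 2.97) and SMTN by 2.001 (0.58 to 3.42). Every gene had the same standard error in this fit, 0.72, so the intervals rest on a spread pooled over genes. They do not measure the spread of each gene. The SRF value is that of MYOCD relative to SRF above with its sign turned. There the interval was -2.74 to -0.38 (SE 0.51), and the limma adjusted p did not pass. Without D0 replicate 1 the difference of SRF was 1.02, and without D10 replicate 2 it was 1.07, and in each case its interval held 0.

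The share of a gene's D10 log2 change already present at D4 is given for the 7 genes with a fitted fall of at least 1. It was 37.4% for ACTA2, 38.7% for LMOD1, 31.8% for MYH11, 21.0% for ACTG2, 16.9% for TAGLN and 13.6% for CNN1. At D7 the shares were 59.1%, 43.0%, 68.1%, 53.4%, 50.9% and 44.9% in that order. The experiments differed in most of these shares. By D4 ACTA2 had 35.7% and 39.1% in experiments 1 and 2, and CNN1 8.45% and 24.3%. By D7 the shares were 56.5% and 62.2% for ACTA2, 42.0% and 70.2% for ACTG2, and 67.9% and 24.9% for LMOD1. No order of timing among the markers is drawn from them. For MYOCD the share at D4 was 83.1%, but it was 120% in experiment 1, where D4 was the lowest library, and 37.3% in experiment 2. Its D4 difference from the markers was not resolved: relative to MYOCD, TAGLN stood at 1.17 at D4 (interval -0.25 to 2.59) and CNN1 at 1.24 (-0.18 to 2.66). With the block, ACTA2, ACTG2, TAGLN and CNN1 were lower at D10 than at D4, with changes of -1.74, -1.43, -1.26 and -1.18 (edgeR adjusted p from 0.00359 to 0.0185). There LMOD1, at -0.93, MYOCD, at -0.33, SMTN, at -0.26, SRF, at 0.058, and SYNPO2, at 0.24, did not pass with the block.

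**Figure D3:**
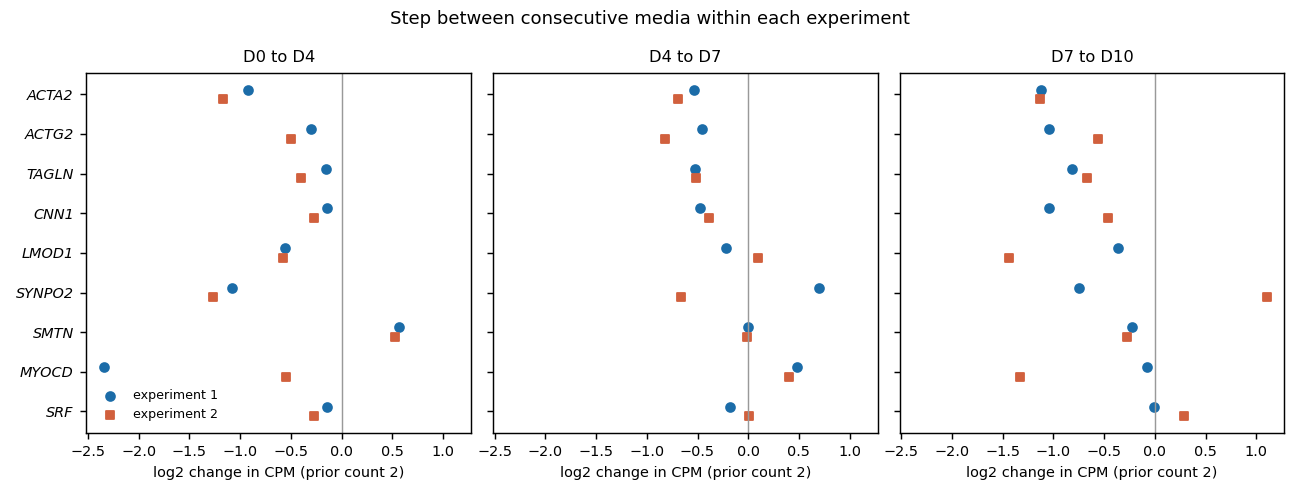
Log2 change in CPM (prior count 2) at each step between consecutive media, one point per experiment; MYH11 is left out for its low counts. The 4 genes ACTA2, ACTG2, TAGLN and CNN1 lie left of 0 at all steps in both experiments, whereas MYOCD lies at -2.34 and -0.55 in the first step and right of 0 in the second.

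Per length (RPKM, the CPM divided by kilobases of the union of GENCODE exons), the D0 order was TAGLN at 488, ACTA2 at 422, ACTG2 at 177, CNN1 at 55.1, LMOD1 at 40.2, SRF at 16.6, SMTN at 9.25, SYNPO2 at 1.43, MYOCD at 0.545 and MYH11 at 0.0696 RPKM. The ranges of the D0 libraries of TAGLN and ACTA2 overlapped (434 to 542 against 391 to 453), and no other neighbours in that order did. At D10 TAGLN, at 168 RPKM, stood clear of ACTA2, at 62.3 (48.9 to 75.7). ACTG2, at 49.8 (43.0 to 56.6), overlapped with ACTA2 there, and SRF, at 15.1, was above LMOD1, at 14.6, within their spread. Myosin heavy chain and myocardin were thus the least abundant members with every medium.

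Genes around this program were read from lists fixed with earlier results of these data known. Changes below are from the fit without the block. Of 63 tested related genes outside the 10, edgeR called 0 at D10 and the block called 8 lower and 3 higher (2.45% and 2.54% of all genes), and their median change was -0.31. Among SRF cofactors, 11 of 12 were tested and 3 were lower with the block: CSRP2 at -1.62 (block adjusted p = 0.0026), a LIM protein of smooth muscle, FHL2 at -0.89 and FHL1 at -0.85. The myocardin relatives MRTFA, at -0.47 (block adjusted p = 0.114), and MRTFB, at -0.066, did not pass. The ternary complex factors ELK1 and ELK3, partners of SRF at growth genes, stood at 0.64 and 0.75, the latter the highest value of the list, without passing (block adjusted p of 0.0667 and 0.0766). The median of the list was -0.47.

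Other contractile genes included 18 tested of 24, with a median of -0.45. The block called 3 lower and 1 higher, against 2.45% and 2.54% of all genes. TPM1, a tropomyosin of the actin filament, stood at -1.46 (775 to 282 CPM, block adjusted p = 0.00442) and the myosin light chain MYL9 at -0.92. At low levels, the junctional membrane protein JPH2 stood at -1.76 (2.84 to 0.83 CPM). The Z-disc protein PDLIM3 was higher at 1.49 (3.79 to 10.7 CPM). Of 17 stress fibre and adhesion targets of SRF tested, 16 had a negative change, as had 49.6% of all tested genes, and the median was -0.41. The block called 3 lower, against 2.45% of all genes. These were CNN2 at -1.01 and CNN3 at -0.93, the non-muscle calponins, and FHL2, which is also in the cofactor list. The highest value there was LPP at 0.0055. The cytoplasmic actins ACTB (-0.63) and ACTG1 (-0.41) did not pass, and the striated muscle actins ACTA1 and ACTC1 were below the filter.

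The growth branch of SRF targets had a median of 0.50 over 10 genes. MCL1, an anti-apoptotic protein, was higher by 1.06 in the fit (278 to 579 CPM, block adjusted p = 0.00617) and the immediate-early factor EGR3 by 2.30 (block adjusted p = 0.0464), from a mean of 0.464 to 2.33 CPM. EGR2 had the lowest value, -1.25, at low levels (1.05 to 0.434 CPM), and did not pass. None of 9 tested repressors of the smooth muscle program passed with edgeR or with the block. Their median was 0.22, with HES1 lowest at -1.19, ELK1 highest at 0.64, and KLF4, which opposes myocardin, at 0.46. HES1 was scarce (1.17 to 0.513 CPM), and its change had an SE of 0.84.

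**Figure D4:**
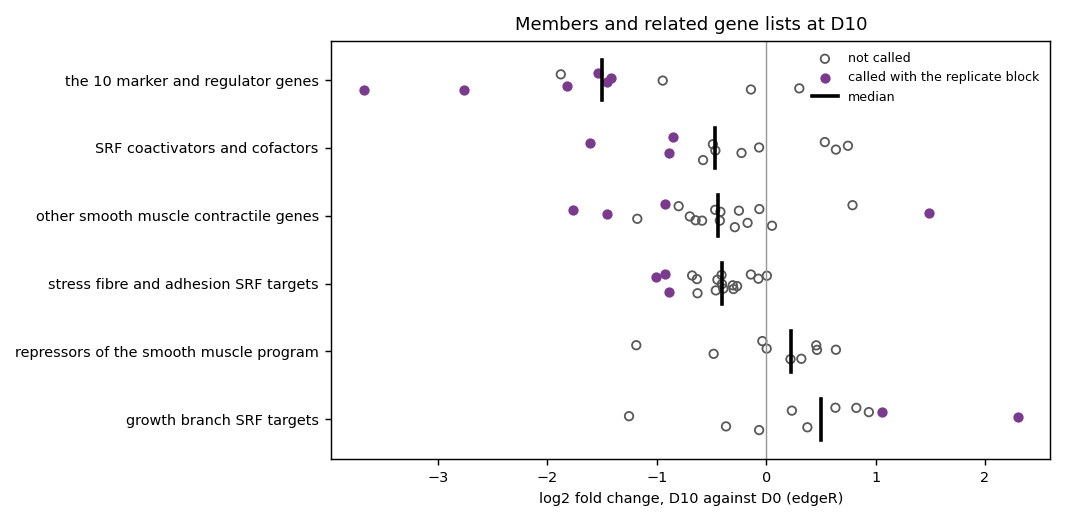
Log2 fold change of D10 against D0 (edgeR) for the 10 genes and 5 related lists, one point per tested gene, filled where called with the replicate block, with the median as a bar and a random vertical scatter. The filled point of MYH11 is not counted as a call, since the filter admitted that gene through the D0 libraries. The medians run from -1.50 for the 10 genes, MYH11 included, to 0.50 for the growth branch targets. FHL2 and ELK1 appear in 2 lists each.

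The genes with the course most like ACTA2 across the 8 libraries were taken from 9050 tested genes with a mean of at least 10 CPM, by Pearson correlation of log2 CPM. They were MGARP (0.977), SYNC (0.977), TPD52L1 (0.976), CNN2 (0.971) and OLFML3 (0.968), against a median of 0.041 over all genes compared. Of these, 2 were also among the top 5 by Spearman correlation and 2 by deviations from the experiment mean. The libraries behind these values share groups and experiments, so the correlations are descriptions. Among the members, ACTG2 reached 0.972, TAGLN 0.968, MYH11 0.962, LMOD1 0.926 and CNN1 0.923. MYOCD followed at 0.690, SYNPO2 at 0.496, SRF at 0.248 and SMTN at -0.066. At D10 TPD52L1, a tumour protein D52 family member, stood at -2.60 and MGARP, a mitochondrial protein, at -2.08. Both were picked for following ACTA2 over the same libraries, so these are given as values only, without a test.

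Some exon sequence of the members is shared with genes on the other strand, and whether strand was used in counting is not given in the sources used here. Exons of ACTA2-AS1 and FAS lie over 17.3% and 12.8% of the ACTA2 exon bases. ACTA2-AS1 ran from 0.764 to 2.26 CPM and FAS from 50.6 to 75.0 CPM, with a D10 change of -0.19 for FAS (edgeR adjusted p = 0.998). PCSK7, over 11.4% of TAGLN, stood between 48.5 and 96.6 CPM. Antisense genes lie over 13.5% of LMOD1 and 7.93% of MYOCD, and 8.05% of MYH11 lies under NDE1 and antisense genes. Little sequence was shared with other genes: at most 0.875% of the 50-base words of a member (ACTA2) occurred in another gene's transcripts. Gene totals also do not tell isoforms apart, among them those of SMTN and SYNPO2.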

How the data were processed

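RNA was measured in 8 libraries of IMR90 fibroblasts, 2 independent experiments for each of 4 media. Per the labels, poly(A) RNA was made into libraries with a stranded TruSeq kit, and the submitters' processing notes name STAR 2.5, DESeq2 and GRCh38. The counting program, annotation and strand setting are not given in the sources used here. The authors deposited raw read counts per gene, which were used as they stand, and 8 RPM columns, which were not used. Every other value was computed here.

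Counts were tested with edgeR 4.0.16 (filterByExpr, TMM, quasi-likelihood test, 4 groups in 1 fit of all 8 libraries, Benjamini-Hochberg adjustment, two-sided). Alternatives were a replicate block, DESeq2 1.42.0 on unfiltered counts, DESeq2 size factors, total counts, unfiltered genes, a minimum of 10 counts per library, fits of the compared groups alone, and each library left out. Ratios to SRF and MYOCD were fitted with limma 3.58.1 on log2 CPM with a prior count of 2. The prior draws the ratios of low genes toward 0. The labels give 2 independent experiments, and deviations from the group means correlated between same-numbered libraries at r from 0.418 to 0.722 over all 6 pairs of groups, so the numbers were taken to pair the libraries. No 2 libraries held identical counts. With 2 libraries per group, p-values without the block measure the spread between 2 experiments on 1 cell line. The block takes out the shift between the experiments. Its p-values measure only the spread left after that, pooled over the 4 groups (common edgeR dispersion 0.0242, against 0.0792 without the block).

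On simulated counts of 13630 genes (13798 for DESeq2, 13629 relative to SRF) for D10 against D0, edgeR recovered 45% of genes changed by 2 on the log2 scale and 0% of those changed by 1, the block 100% and 62% (7 of 169 calls were unchanged genes), DESeq2 97% and 10%, and the unblocked comparison with SRF 0% of either size. Each gene was simulated with its own level in each experiment and a spread estimated with the block. The simulation thus followed the model of the block fit and cannot rank that fit against the others. Only abundant genes were changed, so the shares do not cover genes as scarce as MYOCD and MYH11. The members and lists were chosen with earlier results of these data known. By the rule for named genes the members were described in each comparison, MYH11 without a test, and of each list the genes called, the largest rise and the largest fall at D10, MRTFA and MRTFB, and the 5 genes most like ACTA2. Coordinates and exon lengths are from GENCODE 29 on GRCh38, in which 25886 of the 27696 gene IDs have the same version, those of all 10 members included. Promoter sequence is from RefSeq. R was 4.3.3 and Python 3.11.15.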

Additional observations from a re-analysis of the deposited data

How the results depend on the processing

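Of 859 repeats of the members' results under an alternative, 780 kept their direction and side of the threshold, 46 newly passed, 22 lost the call and 11 changed sign. The counts of members here include MYH11, which the filter admitted through the D0 libraries and the report leaves out. For the block and DESeq2 the shares of all genes called are given above. For other settings the number of all genes called is given only for D10 against D0, and not where a library was left out. Counts without such a number describe the setting and are not read as results about the members. The count of members called at D7 against D0, 0 in edgeR, became 2 with the replicate block, 1 with DESeq2 and 1 without a filter. The count at D10, 1, became 6 with the block, 5 with DESeq2, 6 without a filter, 0 with the compared groups only, and 0 to 2 with a library left out. That at D10 against D4, 0, became 4, 3 and 2 in the first 3 of these settings. The slope count, 3, became 6 with the block and with DESeq2 and lay between 1 and 2 with a library left out. Relative to SRF the count, 0, became 4 with the block, 1 with at least 10 counts in every library, 1 with the compared groups only, 1 with a mean-variance trend in limma (added after the data were seen), and 0 to 3 with a library left out. Of related genes at D10, 0 became 11 with the block, 6 with DESeq2 and 2 without a filter. The number of all genes called at D10, 40 in edgeR, was 688 with the block, 379 with DESeq2, 371 without a filter, 25 with total counts as library sizes, 20 with at least 10 counts in every library and 0 with the compared groups only. The cause of these shifts was not tested.

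The sign changes all came from leaving out 1 library, and none of those values was called. Over the 8 fits, CNN1 at D4 ranged from -0.57 to 0.11. At D10, SMTN ranged from -0.034 to 0.59, SRF from -0.36 to 0.067 and SMTN relative to SRF from -0.079 to 0.97. At D10 against D4, SYNPO2 ranged from -0.26 to 0.65, SMTN from -0.60 to 0.069, MYOCD from -0.67 to 0.16 and SRF from -0.15 to 0.26. The SMTN slope ranged from -0.0029 to 0.062 per day. Relative to MYOCD, values counted apart from the 859 above, TAGLN ranged from -0.18 to 0.52, LMOD1 from -0.25 to 0.61 (-0.002 without D10 replicate 1), SYNPO2 from -0.064 to 1.54 and ACTG2 from -0.47 to 0.23. A group left with 1 library is assumed to vary like the others. Depth limits MYH11, at 0 to 17 counts a library, and MYOCD, at 13 to 78. MYH11 left the test when at least 10 counts were asked of every library.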
